A study of Mus musculus with 12 samples.

Results

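The histone genes of the mouse vessel were followed over 7 days of angiotensin II, the peptide hormone that raises blood pressure and thickens the vessel wall. They were taken as the genes whose symbol in the probe annotation, or whose current name, follows the naming of the clustered histone families. The rule found 33 of the 30702 genes that had a transcript cluster (the array's unit of measurement, a set of probes for 1 transcript) with a single symbol. Of the 33, 30 carried such a symbol in the annotation itself, and Gm6970 (now H1f11-ps), H1foo (H1f8) and H1fx (H1f10) were added through their current names. They comprise 9 genes of the linker histone H1, 10 of H2A, 9 of H2B, 3 of H3 and 2 of H4. All but 3 are coding genes: Gm6970, Hist1h2aj and Hist3h2bb-ps are annotated as pseudogenes. Many copies within the H2A, H2B, H3 and H4 classes are nearly identical in sequence. Probes assigned to 1 gene may therefore also bind the RNA of others, which was not tested.

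The mice were male C57BL/6, 8 to 10 weeks old, and carried no engineered allele in the labels. Each treated mouse received angiotensin II at 1500 ng/kg/min from an implanted osmotic pump for 1, 3 or 7 days. The day 0 mice received none, and the labels do not say whether they carried a pump without the hormone. Total RNA of the vessel was labelled with biotin and hybridised to 12 arrays, 3 biological replicates in each of the 4 groups. Nor do they say which vessel was taken.

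DNA is wound around a core of 2 copies each of H2A, H2B, H3 and H4, and H1 sits on the linker between cores. Most of the genes measured here are replication-dependent: they lie in clusters, have no introns, and are transcribed mainly in S phase when new DNA has to be packaged. Many of those for H2A, H2B, H3 and H4 are near-identical copies. The mRNA of replication-dependent genes ends in a stem-loop in place of a poly(A) tail. Protocols that prime on poly(A) therefore capture these mRNAs poorly, and the primer used for labelling here is not stated.

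The promoters of the genes whose values are described most closely below are shown first, because promoters of this family share short elements known from the S-phase control of histone genes. Each is the 170 bases before the RefSeq start on GRCm38.p6, read 5′ to 3′ in the direction of transcription. Capitals mark CCAAT, the box bound by NF-Y, which reads ATTGG on the other strand. They also mark the TATA box TATAAA, on the other strand TTTATA, and the octamer bound by Oct-1, ATTTGCAT, which on the other strand is ATGCAAAT. The first is that of the linker histone gene Hist1h1a, the next ones belong to the H2A genes Hist1h2ap and Hist1h2ak, to the H2B genes Hist1h2ba, Hist1h2bb and Hist2h2bb, to the H3 gene Hist1h3c and to the H4 gene Hist1h4a.
Hist1h1a, chr13:23763498-23763667, plus strand: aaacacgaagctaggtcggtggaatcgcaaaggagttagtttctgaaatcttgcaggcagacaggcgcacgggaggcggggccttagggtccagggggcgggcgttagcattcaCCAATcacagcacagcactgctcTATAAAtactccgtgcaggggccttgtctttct
Hist1h2ap, chr13:21833476-21833645, minus strand: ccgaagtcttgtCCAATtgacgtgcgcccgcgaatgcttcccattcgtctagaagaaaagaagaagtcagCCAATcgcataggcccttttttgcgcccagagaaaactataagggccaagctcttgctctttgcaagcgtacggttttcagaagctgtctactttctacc
Hist1h2ak, chr13:21753913-21754082, minus strand: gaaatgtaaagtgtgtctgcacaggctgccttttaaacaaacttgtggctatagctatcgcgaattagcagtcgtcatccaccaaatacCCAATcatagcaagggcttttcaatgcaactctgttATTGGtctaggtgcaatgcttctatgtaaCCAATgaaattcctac
Hist1h2ba, chr13:23934157-23934326, minus strand: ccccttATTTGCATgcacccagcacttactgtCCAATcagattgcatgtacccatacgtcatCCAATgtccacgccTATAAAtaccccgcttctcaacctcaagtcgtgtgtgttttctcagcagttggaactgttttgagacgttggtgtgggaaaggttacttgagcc
Hist1h2bb, chr13:23746564-23746733, plus strand: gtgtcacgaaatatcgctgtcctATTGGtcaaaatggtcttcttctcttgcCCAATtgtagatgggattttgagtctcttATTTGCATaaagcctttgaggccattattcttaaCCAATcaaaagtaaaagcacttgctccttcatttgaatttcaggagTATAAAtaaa
Hist2h2bb, chr3:96269530-96269699, plus strand: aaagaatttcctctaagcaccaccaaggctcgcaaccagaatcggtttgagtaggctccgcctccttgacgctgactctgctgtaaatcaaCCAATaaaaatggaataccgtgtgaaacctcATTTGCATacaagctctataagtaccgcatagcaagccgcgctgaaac
Hist1h3c, chr13:23745522-23745691, minus strand: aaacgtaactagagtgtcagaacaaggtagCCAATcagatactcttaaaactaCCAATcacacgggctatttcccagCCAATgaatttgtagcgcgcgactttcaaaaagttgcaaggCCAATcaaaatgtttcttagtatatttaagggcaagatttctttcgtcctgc
Hist1h4a, chr13:23761250-23761419, minus strand: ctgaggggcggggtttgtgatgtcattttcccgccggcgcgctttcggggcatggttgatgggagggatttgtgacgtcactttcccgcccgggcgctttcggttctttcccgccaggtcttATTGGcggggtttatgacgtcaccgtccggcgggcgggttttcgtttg
RefSeq promoters of 28 of the 33 genes were at hand, 20 of them on chromosome 13, 5 on chromosome 3, 2 on chromosome 6 and 1 on chromosome 15. In the 250 bases before the start, on either strand, CCAAT stood in 25 of the 28 (89.3%), against 34.5% of 27025 promoters of all genes. TATAAA stood in 10 (35.7%, against 13.0% of all promoters). The octamer stood in 8 (28.6%, against 1.61%), of which 5 were among the 7 H2B promoters and 3 among the 9 H2A promoters. The starts of Hist1h2ba and Hist1h2aa lie 281 bases apart on opposite strands, so they share the octamer. Those of Hist1h2ah and Hist1h2bk lie 178 bases apart, likewise on opposite strands. A match is a description of the letters and not a measured binding site.

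Most histone genes gave a dim signal. Of the 33, 17 read below the median of the negative control features of the same array on all 12 arrays, and 24 did so on all 3 day 0 arrays. Only Hist1h1c, Hist1h2af, Hist1h2aj and Hist2h2be were above it on every array. A gene entered the test if its signal was 5.25 or more (the 40th percentile of the array's clusters) on 3 or more of the 12 arrays, as it was for 22 histone genes and 22066 genes in all. On their day 0 arrays alone 13 of the 22 passed. The other 9 needed treated arrays, and Hist1h2ap, Hist1h2ah and Hist1h3c had no day 0 array at that level. A gene that passed through its treated arrays had to be higher there, so counts over the 22 are descriptions, and the changes of all 33 are given beside them.

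The negative control medians were between 5.91 and 6.14 on the 12 arrays. The median of the positive control features exceeded that of the negative ones by 2.56 to 2.64 on day 0, 1.94 to 2.51 on day 1, 1.83 to 2.11 on day 3, and 1.20 to 2.10 on day 7, the lowest being day 7 replicate 1. Markers of other cells moved too. The mean log2 signal of 8 macrophage markers was 8.03 on day 0, 10.01 on day 1, 10.05 on day 3 and 9.63 on day 7. At an adjusted p under 0.05 in limma, 7, 8 and 7 of the 8 rose, against 1.99%, 4.61% and 12.1% of all genes. The mean of 6 smooth muscle markers was 16.04, 14.78, 13.86 and 11.66. Of these 6, 0, 2 and 6 fell, against 1.63%, 7.14% and 13.2% of all genes. The mean of 4 fibroblast markers went from 14.73 on day 0 to 16.41 on day 7, and that of 4 brown adipocyte markers from 8.45 to 7.31. In bulk RNA a change in the number of cells of a type cannot be told apart from a change of RNA per cell, and the part of cell composition in the histone values was not tested.

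On day 1, 3 H2A genes and 1 H2B gene were higher than before treatment. Hist1h2ap, Hist1h2ak and Hist1h2ah, which encode canonical H2A, and Hist1h2ba, which encodes the H2B of the testis, TH2B, rose at an adjusted p under 0.05 in limma. These were 4 of the 22 histone genes tested, against 1.99% of all genes tested that rose. No histone gene fell at an adjusted p under 0.05, while 1.63% of all genes did. None fell at an unadjusted p under 0.05 either, for which the share of all genes is not given here. In 11 of the 22 all 3 day 1 arrays lay above all 3 day 0 arrays, against 11.8% of all genes. Hist1h2ap and Hist1h2ah read below the negative control median on all 12 arrays, and without the filter Hist1h2ah and Hist1h2ba missed the threshold (limma adjusted p 0.0534 each). By class, non-overlap held for 7 of 9 H2A, 2 of 6 H2B, 1 of 4 H1, 1 of 2 H3 and 0 of 1 H4 genes.

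**Figure D1:**
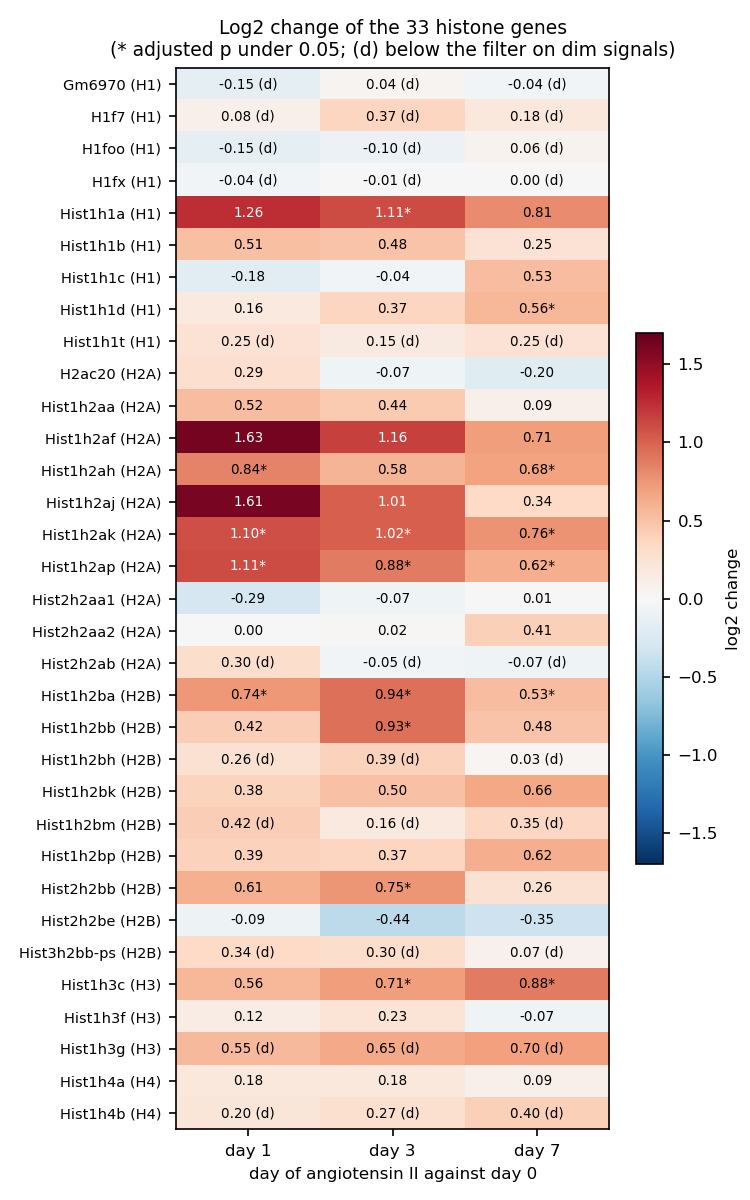
Log2 change from day 0 of each of the 33 histone genes (rows, by class) on days 1, 3 and 7 (columns), as the mean of 3 arrays minus the mean of the 3 day 0 arrays. Asterisks mark genes called by limma at an adjusted p under 0.05 and (d) marks the 11 genes too dim to be tested; the changes run from -0.44 (Hist2h2be, day 3) to 1.63 (Hist1h2af, day 1).

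Hist1h2ap read 4.62, 4.52 and 4.53 log2 on day 0, 5.49, 5.83 and 5.69 on day 1, 5.49, 5.69 and 5.12 on day 3, and 4.91, 5.52 and 5.09 on day 7. Every treated array lay above every day 0 array, and day 1 overlapped day 7 only through day 7 replicate 2. The log2 change from day 0 was 1.11 ± 0.18 (SE, n = 3 arrays in each group) on day 1, 0.88 on day 3 and 0.62 on day 7, with limma adjusted p of 0.0156, 0.0168 and 0.0356.

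Hist1h2ak, another canonical H2A gene, read 5.58, 5.45 and 5.19 on day 0, 6.70, 6.64 and 6.17 on day 1, 6.53, 6.51 and 6.25 on day 3, and 5.87, 6.56 and 6.07 on day 7. All 9 treated arrays were again above the 3 untreated ones. Its changes were 1.10 ± 0.20 (SE), 1.02 and 0.76, with limma adjusted p of 0.024, 0.0152 and 0.0271. Hist1h2ah, also canonical H2A, read 5.25, 4.78 and 4.75 on day 0, 5.88, 5.91 and 5.50 on day 1, 5.43, 5.83 and 5.25 on day 3, and 5.61, 5.69 and 5.52 on day 7. The treated arrays lay above day 0, narrowly so on day 3, whose lowest array and the highest of day 0 both round to 5.25. It changed by 0.84 ± 0.18 (SE) on day 1 (limma adjusted p 0.042) and 0.68 on day 7 (0.0284), while the 0.58 of day 3 missed the threshold (0.0752).

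Hist1h2ba read 5.34, 5.33 and 5.65 on day 0, 6.34, 6.16 and 6.04 on day 1, 6.44, 6.51 and 6.20 on day 3, and 5.79, 6.32 and 5.82 on day 7. The groups did not overlap on any treated day. Its changes were 0.74 ± 0.16 (SE) on day 1, 0.94 on day 3 and 0.53 on day 7, with limma adjusted p of 0.0418, 0.00965 and 0.0412. TH2B is known from male germ cells, and the germ cell markers Prm1, Prm2, Tnp1, Tnp2 and Ddx4 were all below the negative control median on every array. Its neighbour on the opposite strand, Hist1h2aa, encodes the testis H2A, TH2A. It read 5.82, 5.67 and 5.45 on day 0, 6.12, 6.29 and 6.09 on day 1, 5.95, 6.00 and 6.31 on day 3, and 5.80, 5.58 and 5.83 on day 7. The day 1 and day 3 arrays lay above day 0 and the day 7 arrays overlapped it, with changes of 0.52 ± 0.13 (SE; limma adjusted p 0.0608), 0.44 (0.057) and 0.09 (0.6).

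**Figure D2:**
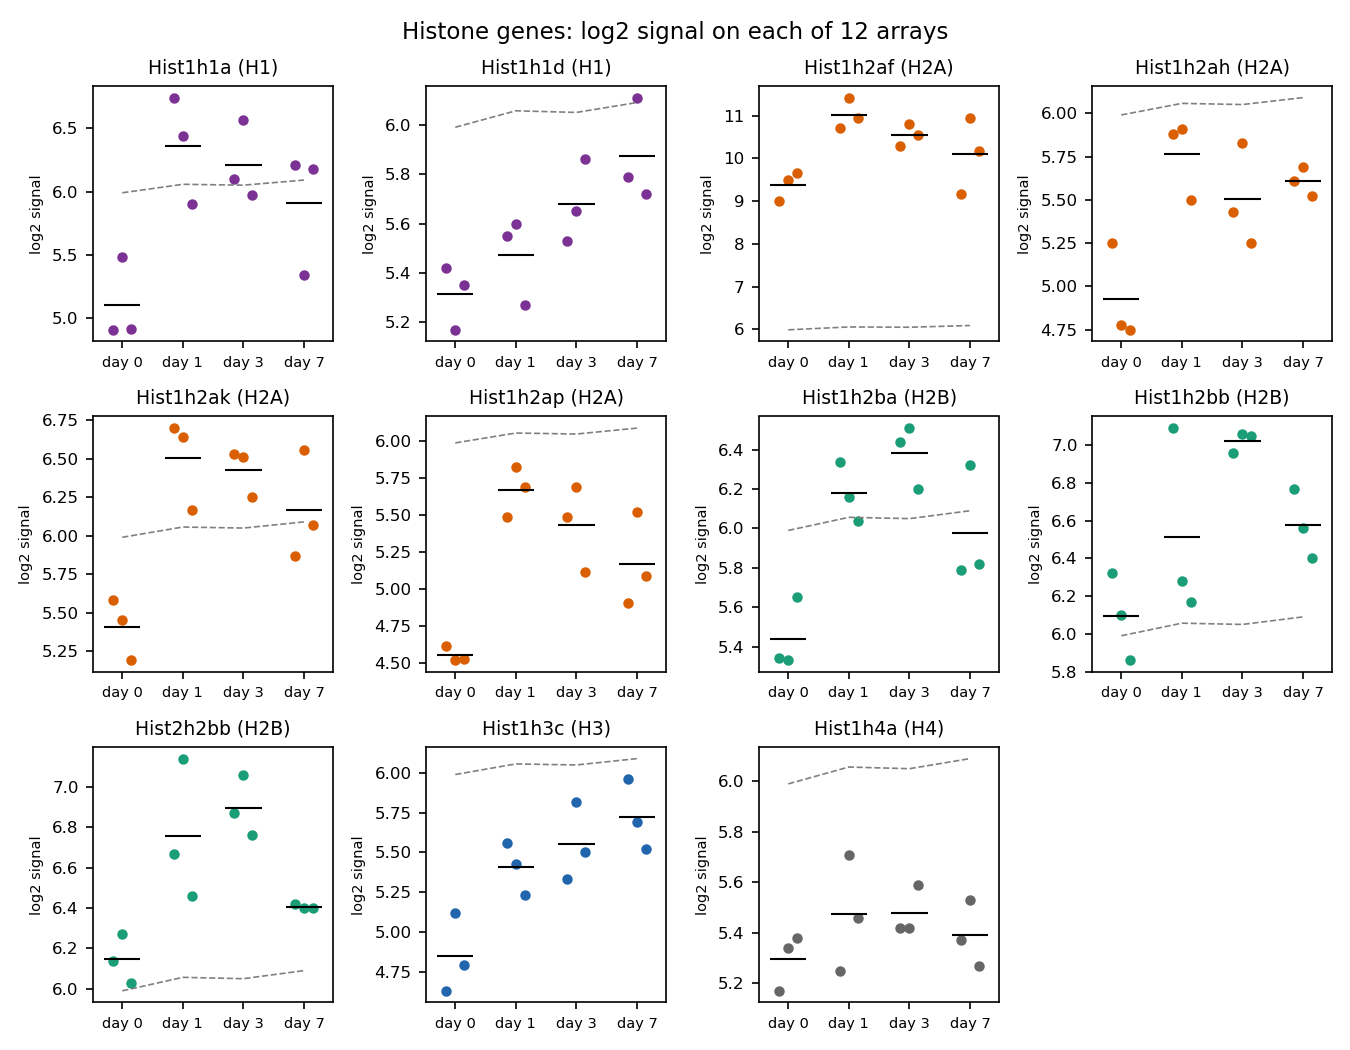
Log2 signal of 11 histone genes on each of the 12 arrays (dots) by day of angiotensin II, with the mean of 3 arrays as a solid line and the mean negative control median of each day as a dashed line. Hist1h2ap, Hist1h2ah, Hist1h3c and Hist1h4a stayed under the dashed level on every array, and the replicate 1 dot of Hist1h2af on day 7 (9.16) lies near its day 0 dots.

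Among the genes that did not pass the test, Hist1h2af had a larger change than any of these. This canonical H2A gene read 9.01, 9.49 and 9.66 on day 0, 10.70, 11.42 and 10.94 on day 1, 10.28, 10.80 and 10.54 on day 3, and 9.16, 10.94 and 10.18 on day 7. The day 1 and day 3 arrays all exceeded day 0, whereas day 7 replicate 1 fell among the day 0 values. The changes were 1.63 ± 0.40 (SE), 1.16 and 0.71, with limma adjusted p of 0.0573, 0.0939 and 0.193. Over 12 fits that each left out 1 array, Hist1h2af passed in 2, 2 and 1 on days 1, 3 and 7. Its day 7 change in these fits ran from 0.29 to 1.18. Without day 7 replicate 1, whose control features stood closest together, all 3 comparisons passed, at 1.63 (0.0174), 1.16 (0.0251) and 1.18 (0.0345). The pseudogene Hist1h2aj had the same low array: it read 10.05, 10.40 and 10.45 on day 0, 11.50, 12.31 and 11.93 on day 1, 11.05, 11.71 and 11.15 on day 3, and 9.22, 11.72 and 10.98 on day 7. Its changes of 1.61 ± 0.53 (SE), 1.01 and 0.34 did not pass (limma adjusted p 0.146, 0.242 and 0.639).

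On day 3 the linker histone gene Hist1h1a and the core histone genes Hist1h2bb, Hist2h2bb and Hist1h3c joined Hist1h2ap, Hist1h2ak and Hist1h2ba among the genes higher than on day 0. These 7 of 22, from the H1, H2A, H2B and H3 classes, compare with 4.61% of all genes tested that rose. None fell at an adjusted p under 0.05 in limma, against 7.14% of all genes, and Hist2h2be alone did so at an unadjusted p under 0.05, against 14.8%. In 15 of the 22 all day 3 arrays lay above day 0, against 23.3% of all genes.

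Hist1h1a, which encodes the linker histone H1.1, read 4.91, 5.48 and 4.92 on day 0, 6.74, 6.44 and 5.90 on day 1, 6.10, 6.56 and 5.97 on day 3, and 6.21, 5.34 and 6.18 on day 7. All day 1 and day 3 arrays were above day 0, and day 7 replicate 2 was not. It changed by 1.26 ± 0.30 (SE; limma adjusted p 0.0547) on day 1, 1.11 (0.0436) on day 3 and 0.81 (0.0723) on day 7, so that only day 3 was called. Day 3 missed the threshold without the filter (limma adjusted p 0.0543), on all clusters (0.0674), after quantile normalization (0.0803) or centring (0.0629) and with the gap between positive and negative controls of each array as a covariate (0.325). Day 1 passed it with a stricter filter (0.0444) or a variance trend with robust estimation (0.0466).

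The H2B gene Hist1h2bb read 6.32, 6.10 and 5.86 on day 0, 7.09, 6.28 and 6.17 on day 1, 6.96, 7.06 and 7.05 on day 3, and 6.77, 6.56 and 6.40 on day 7. Day 3 was tight and high, while 2 of the 3 day 1 arrays lay within the range of day 0. The day 3 change of 0.93 ± 0.23 (SE) passed (limma adjusted p 0.0301), and the 0.42 of day 1 (0.425) and the 0.48 of day 7 (0.128) did not. Hist2h2bb, an H2B gene of the second cluster on chromosome 3, read 6.14, 6.27 and 6.03 on day 0, 6.67, 7.14 and 6.46 on day 1, 6.87, 7.06 and 6.76 on day 3, and 6.42, 6.40 and 6.40 on day 7. Every treated array was above day 0, by little on day 7. Its changes were 0.61 ± 0.16 (SE; limma adjusted p 0.0699), 0.75 (0.0182) and 0.26 (0.226).

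The course of the H3 gene Hist1h3c was different in its means, which were highest on day 7. It read 4.63, 5.12 and 4.79 on day 0, 5.56, 5.43 and 5.23 on day 1, 5.33, 5.82 and 5.50 on day 3, and 5.96, 5.69 and 5.52 on day 7. No treated array overlapped day 0, but the treated days overlapped each other. The changes were 0.56 ± 0.17 (SE; limma adjusted p 0.125) on day 1, 0.71 (0.0319) on day 3 and 0.88 (0.00878) on day 7, and day 7 did not differ from day 1 at the threshold (0.32, adjusted p 0.239).

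By day 7 the called genes were Hist1h3c, Hist1h2ak, Hist1h2ah, Hist1h2ap, Hist1h1d and Hist1h2ba. They are 6 of the 22 histone genes, against 12.1% of all genes tested that rose. Again none fell in limma at an adjusted p under 0.05, against 13.2% of all genes. None fell at an unadjusted one either, for which the share of all genes is not given here. All day 7 arrays of 11 of the 22 lay above day 0, against 26.6% of all genes. Hist1h1d, which encodes the linker histone H1.3, read 5.42, 5.17 and 5.35 on day 0, 5.55, 5.60 and 5.27 on day 1, 5.53, 5.65 and 5.86 on day 3, and 5.79, 6.11 and 5.72 on day 7. Its day 1 arrays overlapped day 0 and its day 3 and day 7 arrays did not. The changes were 0.16 ± 0.14 (SE; limma adjusted p 0.702), 0.37 (0.117) and 0.56 (0.0204).

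These counts rest on few arrays. With 1 array left out at a time, the day 1 count was 0 without day 0 replicate 2, day 0 replicate 3 or day 1 replicate 2, 1 without day 1 replicate 1, 2 without day 3 replicate 1 and 7 without day 1 replicate 3. On day 3 it was 3, 4 and 1 without day 0 replicates 1, 2 and 3, and 1 and 4 without day 3 replicates 2 and 3. On day 7 it was 1 and 2 without day 0 replicates 2 and 3, and 2 without day 7 replicate 2; all other omissions gave 3 to 6, 5 to 9 and 4 to 8 calls on the 3 days. Hist1h2ba on day 3 and Hist1h3c on day 7 passed in all 12 such fits, Hist1h2ak on day 3 in 10 and Hist1h2ap on day 1 in 9. By contrast Hist1h2ah on day 1 passed in 5 and Hist1h2ba on day 1 in 4.

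The scale of the arrays also bears on the counts. On the deposited scale the median change over all genes was 0.01, 0.08 and 0.09 on days 1, 3 and 7, and it became -0.05 and -0.11 on days 3 and 7 after quantile normalization and -0.11 and -0.19 after centring each array on its median. Over the 10499 genes with a mean signal of 5 to 6.5, where 16 of the 22 histone genes lay, the deposited medians were 0.02, 0.16 and 0.22. The histone median was 0.47, 0.49 and 0.51 on the deposited scale. It was 0.38, 0.29 and 0.26 after quantile normalization and 0.39, 0.29 and 0.21 after centring. Relative to the median of all genes, 18, 17 and 17 of the 22 histone genes were higher on the deposited scale. After quantile normalization, which let 23 histone genes pass, the numbers were 19, 17 and 16, and after centring they were 19, 17 and 18 of 23. Quantile normalization left Hist1h2ap and Hist1h2af (1.85) called on day 1, Hist1h2ak, Hist1h2ba, Hist1h2bb and Hist2h2bb on day 3, and Hist1h3c (0.62) on day 7, when H2ac20 fell (-0.42, limma adjusted p 0.0384). Centring left Hist1h2ap and Hist1h2ak on day 1, Hist1h2ak, Hist1h2ba and Hist1h2bb on day 3, and Hist1h3c (0.60) on day 7, when Hist2h2be fell (-0.63, limma adjusted p 0.0364). With this control-feature covariate, the called genes on day 1 were Hist1h2af (2.04), Hist1h2aj (2.26), Hist1h2ak and Hist1h2ap. Only Hist1h2ap (1.16) was called on day 3, and none on day 7. The histone median with the covariate was 0.39, 0.43 and 0.41, against -0.03, -0.01 and 0 over all genes. Above the latter were 20, 18 and 15 of the 22. The control gap was larger on every day 0 array (2.56 to 2.64) than on any treated array (up to 2.51). That fit can therefore hardly separate the covariate from treatment.

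An F test over the 3 comparisons with day 0 called 7 histone genes, against 14.6% of all genes. The smallest limma adjusted p belonged to Hist1h2ap (0.0156), Hist1h2ba (0.0201), Hist1h2ak (0.0203), Hist1h3c (0.032) and Hist2h2bb (0.0333), followed by Hist1h2aa (0.0457) and Hist1h2ah (0.0459). Hist1h2aa was thus called by the F test without being called on any single day. The 3 comparisons share the day 0 arrays, so a low or high day 0 array enters all of them.

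Several histone genes did not move with these. Hist1h1c, which encodes the linker histone H1.2 and is known to be expressed outside S phase as well, read 6.61, 6.41 and 6.63 on day 0, 6.22, 6.39 and 6.52 on day 1, 6.40, 6.84 and 6.28 on day 3, and 6.77, 7.47 and 7.01 on day 7. Its day 7 arrays alone were clear of day 0, with a change of 0.53 (limma adjusted p 0.0686) after -0.18 on day 1. Hist2h2be, an H2B gene of the second cluster, was lower in its means on all 3 days, by -0.09 ± 0.18 (SE), -0.44 (limma adjusted p 0.152) and -0.35 (0.163), none past the threshold. All day 7 arrays of Hist2h2be lay below all its day 0 arrays. H2ac20 read 6.29, 6.25 and 6.32 on day 0, 6.35, 6.54 and 6.84 on day 1, 6.19, 6.25 and 6.20 on day 3, and 6.15, 6.20 and 5.90 on day 7. Its day 1 arrays were above day 0 and its day 7 arrays below.

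The remaining tested members changed less or unevenly. Hist1h1b, which encodes H1.5, changed by 0.51, 0.48 and 0.25 on days 1, 3 and 7. The H2A genes Hist2h2aa1 (-0.29, -0.07 and 0.01) and Hist2h2aa2 (0.00, 0.02 and 0.41) had day 1 means at or under day 0. All day 1 arrays of Hist2h2aa1 lay below all its day 0 arrays. The H2B genes Hist1h2bk (0.38, 0.50 and 0.66, the last with a limma adjusted p of 0.0587) and Hist1h2bp (0.39, 0.37 and 0.62) were highest on day 7. Hist1h3f changed by 0.12, 0.23 and -0.07. Hist1h4a, the only H4 gene tested, read 5.17, 5.34 and 5.38 on day 0, 5.25, 5.71 and 5.46 on day 1, 5.42, 5.42 and 5.59 on day 3, and 5.37, 5.53 and 5.27 on day 7, with changes of 0.18 ± 0.12 (SE), 0.18 and 0.09 (limma adjusted p 0.582, 0.352 and 0.57).

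The other 11 genes were too dim for the test. The testis linker histone genes were among them: Hist1h1t (H1t) read between 3.27 and 3.66 on the 12 arrays, H1f7 (H1T2) between 4.32 and 5.05. The oocyte linker histone gene H1foo lay between 4.30 and 4.89. H1fx, which encodes the replacement linker histone H1.10, lay between 3.07 and 3.63 and had means within 0.04 of day 0 on all 3 days. The H3 gene Hist1h3g read 3.97, 4.28 and 3.92 on day 0 and between 4.28 and 5.35 on the treated arrays, with changes of 0.55, 0.65 and 0.70. For the others the changes on days 1, 3 and 7 were 0.20, 0.27 and 0.40 for Hist1h4b, 0.42, 0.16 and 0.35 for Hist1h2bm, 0.26, 0.39 and 0.03 for Hist1h2bh, and 0.30, -0.05 and -0.07 for Hist2h2ab. The pseudogenes Gm6970 (-0.15, 0.04 and -0.04) and Hist3h2bb-ps (0.34, 0.30 and 0.07) complete the 33.

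The order of the class medians depended on the day and on which genes were counted. Over all 33 genes, with no filter, 27, 26 and 28 had a mean above day 0 on days 1, 3 and 7, against 53.6%, 66.7% and 67.7% of all genes. The median change was 0.34, 0.37 and 0.34, against 0.01, 0.11 and 0.15 over all 30702. The H2A genes had a median of 0.68 on day 1, 0.51 on day 3 and 0.38 on day 7. The 9 H2B genes had medians of 0.39, 0.39 and 0.35. The 3 H3 genes, all below the negative control median on every array, had 0.55, 0.65 and 0.70, the 9 H1 genes 0.08, 0.15 and 0.25, and the 2 H4 genes 0.19, 0.23 and 0.25. Among the tested genes alone the highest class median was that of H2A on day 1 (0.84), of H2B on day 3 (0.62) and of H1 on day 7 (0.55). These are descriptions of unequal and partly dim sets, with no test between classes.

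**Figure D3:**
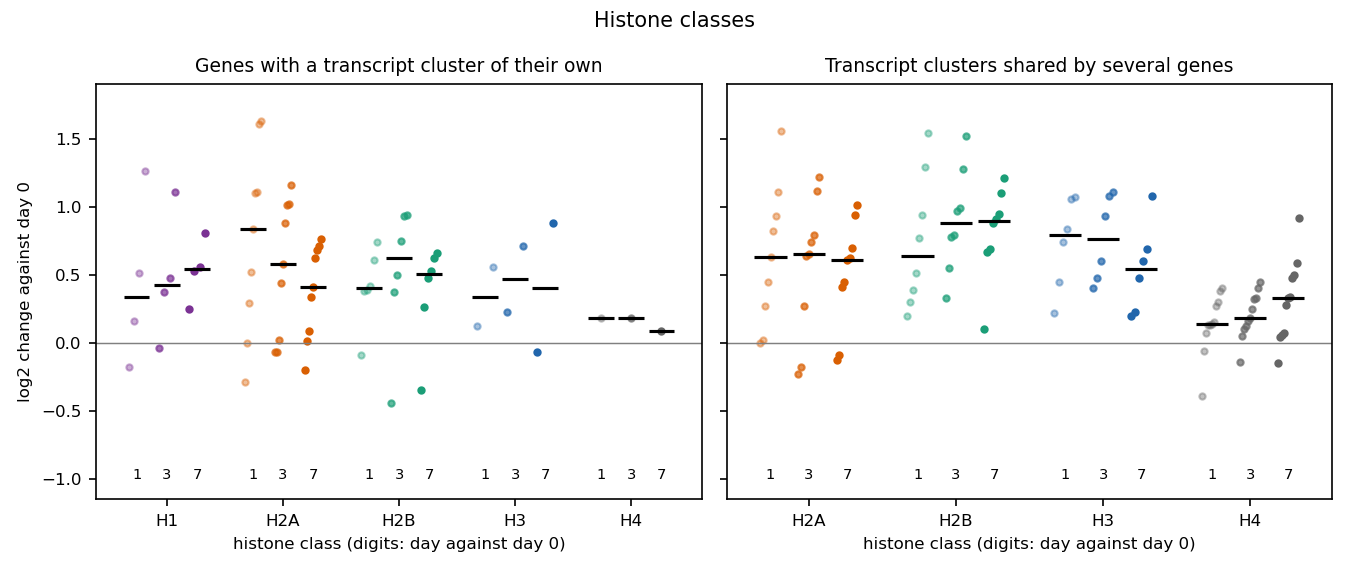
Log2 change from day 0 (vertical axis) by histone class on days 1, 3 and 7; each dot is 1 of the 22 tested genes with a transcript cluster of its own (left) or 1 of the 34 tested clusters shared by several genes of a class (right), and black lines are medians. Medians of the 9 tested H2A genes, of which some passed through treated arrays, go from 0.84 on day 1 to 0.41 on day 7. The shared H4 medians are 0.14, 0.18 and 0.33, the lowest of the 4 shared classes on these values. With the control-feature covariate H4 was above H3 (0.61 against 0.42) on day 7. Some shared clusters also passed through treated arrays.

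Many genes for H2A, H2B, H3 and H4 are so alike that many transcript clusters match several of them. Several symbols with a histone gene among them stood on 41 clusters, and 36 of these held histone genes of a single class, 2 to 13 symbols each. They cannot be assigned to 1 gene and are grouped here by class. Their levels differed widely within a class. On day 0 replicate 1 the H4 clusters, all with 13 symbols, read 4.89 to 10.65. The H2A clusters with 10 symbols read 4.71 to 11.15 on that array. Some clusters of each class were dim before treatment, lower than the median negative control feature. Whether clusters of a class measure different RNA was not tested, so counts of them are descriptions. Of the 36, 34 were tested in a fit over 44015 transcript clusters, chosen after seeing the data. In limma, 3 rose on day 1 (0.741% of all clusters rose), 6 on day 3 (2.24%) and 11 on day 7 (9.27%). None fell at an adjusted p under 0.05 (0.7%, 3.41% and 7.79% of all clusters did). At an unadjusted p under 0.05 the number was 1 on day 1 and 0 on days 3 and 7. The share of all clusters at that threshold is not given here.

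The class order was not the same as among the single genes. Medians on days 1, 3 and 7 were 0.63, 0.65 and 0.61 for the 9 shared H2A clusters, 0.64, 0.88 and 0.90 for the 8 of H2B and 0.79, 0.76 and 0.54 for the 6 of H3. For the 11 of H4 they were 0.14, 0.18 and 0.33, against 0.02, 0.14 and 0.20 over all clusters. Calls on day 7 fell on 3 H2A, 5 H2B, 1 H3 and 2 H4 clusters. On day 1 all arrays lay above day 0 in 7 of 9 H2A, 5 of 8 H2B and 6 of 6 H3 clusters but in 1 of 11 H4 clusters, against 9.99% of all clusters. On day 3 this held for 7 H2A, 7 H2B, 6 H3 and 1 H4 clusters (23.6% of all clusters), and on day 7 for 6, 7, 5 and 3 (29.3%). On day 7 centring lowered the medians of H2A, H2B, H3 and H4 to 0.34, 0.62, 0.27 and 0.06 and that of all clusters to -0.09, and quantile normalization lowered them to 0.34, 0.67, 0.37 and 0.21 and that of all clusters to -0.02. With the control-feature covariate the day 7 medians were 0.70, 0.85, 0.42 and 0.61, so that H3 and not H4 was lowest. The day 7 median of H4 was 0.57 without day 7 replicate 1, 0.13 without replicate 2 and 0.18 without replicate 3.

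A shared H2A cluster with 10 symbols read 6.06, 5.85 and 6.01 on day 0, 7.05, 7.01 and 7.18 on day 1, 7.25, 7.51 and 6.83 on day 3, and 7.05, 7.26 and 6.64 on day 7. The 9 treated arrays stood clear of day 0, and the changes of 1.11 ± 0.19 (SE), 1.22 and 1.01 passed on all days (limma adjusted p 0.0314, 0.0116 and 0.0113). A shared H2B cluster with 4 symbols read 8.17, 8.83 and 8.70 on day 0, 10.05, 10.50 and 9.78 on day 1, 10.09, 10.33 and 9.85 on day 3, and 8.96, 10.27 and 10.11 on day 7. Its changes were 1.54 (limma adjusted p 0.0703), 1.52 (0.0375) and 1.21 (0.0442), with day 7 replicate 1 again the lowest treated array. A shared H3 cluster changed by 1.07 (limma adjusted p 0.0551), 1.11 (0.0265) and 1.08 (0.0159). Without day 7 replicate 1 the shared clusters called were 7, 12 and 13 on days 1, 3 and 7. Without day 7 replicate 2 they were 6 on day 1, 10 on day 3 and 4 on day 7. Without any single day 0 array they were 0 on day 1, 1 to 2 on day 3 and 3 on day 7; without day 1 replicate 1 or 2 they were 0 on day 1, and without any single day 3 array 1 to 2 on day 3.

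Between the treated days no histone gene was called. In limma 0 passed the adjusted threshold for day 3 against day 1, day 7 against day 1 and day 7 against day 3, where 0%, 4.79% and 0.267% of all genes did. At an unadjusted p under 0.05 the counts were 2, 8 and 4 of 22, against 8.05%, 30.9% and 12.9% of all genes. Nearest to the threshold for day 7 against day 1 were H2ac20 (-0.49, adjusted p 0.0514), Hist1h1c (0.71, 0.0612), Hist1h2aa (-0.43, 0.0725), Hist1h1d (0.40, 0.0973) and Hist1h2ap (-0.49, 0.109), named after their values were seen. Quantile normalization called a fall of Hist1h2aa (-0.64), Hist1h2af (-1.25) and H2ac20 (-0.64) in that comparison, and centring a fall of Hist1h2aa (-0.67) and H2ac20 (-0.73). Those scales moved the median of all genes from 0.04 to -0.13 and -0.21.

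Genes of S phase, when the canonical histones are made, were read from the same fit. Of 35 tested, 7 rose on day 1, 17 on day 3 and 3 on day 7, against 1.99%, 4.61% and 12.1% of all genes, and 1, Mcm6 (-1.03), fell on day 7, against 13.2%. The day 7 count is no larger a share than that of all genes. With the control-feature covariate the 28 calls over the 3 days became 6. The median change of the 35 genes was 0.43, 0.46 and 0.10. Cdc6, Mcm10, Rrm2, Pole, E2f1 and Mcm2 had no day 0 array at the filter level of 5.25. They entered the test through treated arrays and had to be higher there, so the counts and medians of this list are descriptions. Ccna2 (cyclin A2) changed by 1.35 and 1.30 on days 1 and 3, the ribonucleotide reductase gene Rrm1 by 0.86 and 0.86, and the thymidylate synthase gene Tyms by 0.78 and 1.00, all called. The checkpoint gene Clspn rose on all 3 days (0.83, 0.75 and 0.57), Rrm2 on day 3 (0.99), and the licensing factor gene Cdc6 (0.48) and Mcm10 (0.31) on day 7. Pcna, the polymerase clamp, changed by 0.55, 0.67 and -0.11 without a call (limma adjusted p 0.235, 0.0814 and 0.726).

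Of 18 tested genes of mitosis, the division that follows S phase, 11, 16 and 11 rose on days 1, 3 and 7, against the same 1.99%, 4.61% and 12.1%. None fell in limma at an adjusted p under 0.05, against 1.63%, 7.14% and 13.2% of all genes. None fell at an unadjusted p under 0.05 either, which cannot be set against these adjusted shares. The medians were 0.78, 0.87 and 0.56. With the covariate the 38 calls became 11. Bub1, Bub1b, Aurkb, Cdc20, Nusap1, Cenpe and Ttk had no day 0 array at the filter level of 5.25. These genes had to be higher on treated arrays to be tested, so the counts and medians of this list too are descriptions. Mki67, the proliferation marker Ki-67, read 5.62, 5.95 and 5.57 on day 0, 9.80, 10.11 and 8.16 on day 1, 8.33, 9.65 and 9.19 on day 3, and 7.19, 7.83 and 7.74 on day 7. The lowest treated array exceeded the highest of day 0, and the changes were 3.65 ± 0.49 (SE), 3.34 and 1.87. Top2a, the topoisomerase of dividing cells, changed by 2.25, 2.28 and 1.19, the spindle motor gene Kif11 by 1.81, 1.56 and 1.12, and Prc1, a protein of the spindle midzone, by 1.73, 1.63 and 1.11. The difference between these lists and the histone genes was not tested.

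**Figure D4:**
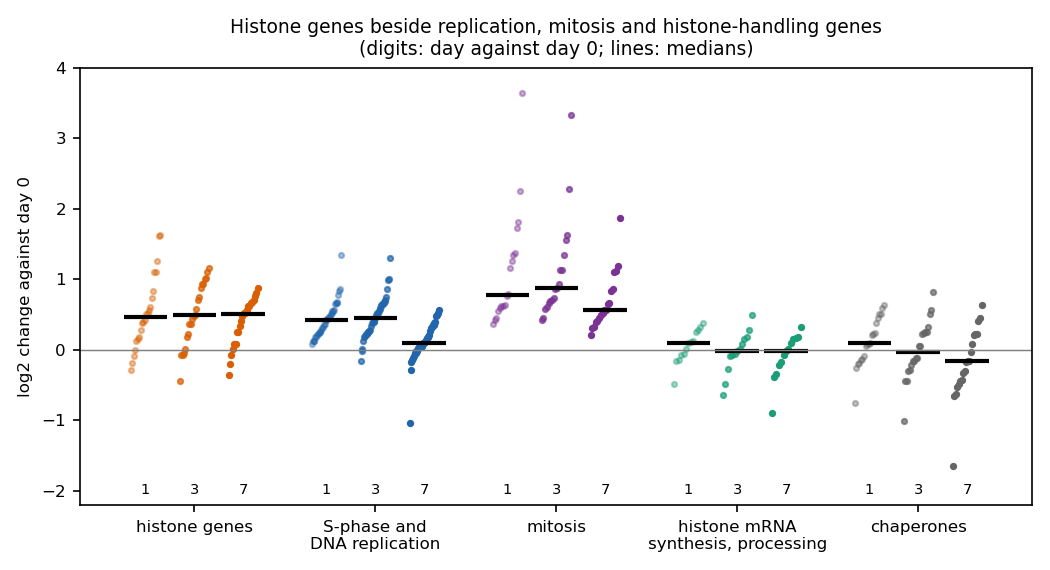
Log2 change from day 0 (vertical axis) on days 1, 3 and 7 of single genes (dots) in 5 lists: histone genes, S phase, mitosis, histone mRNA synthesis and processing, and histone chaperones; lines are medians. The histone medians (22 genes tested) are 0.47, 0.49 and 0.51 on the deposited scale shown, and were 0.38, 0.29 and 0.26 after quantile normalization. The S-phase median goes from 0.43 to 0.10, and the medians of histone mRNA processing lie near 0. The histone, S-phase and mitosis lists include genes that passed the filter through treated arrays.

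Genes that make and process histone mRNA showed little common movement. Of 13 tested, 1 rose on each day, against 1.99%, 4.61% and 12.1% of all genes, and 2 fell on day 7, against 13.2%. The medians were 0.10, -0.02 and -0.02. On day 7 these shares are near the 12.1% and 13.2% of all genes. Eri1, the exonuclease that trims the stem-loop end, was the gene that rose (0.38, 0.49 and 0.32). Slbp, the protein that binds the stem-loop, read 5.98, 6.17 and 6.03 on day 0, 6.35, 6.40 and 6.27 on day 1, 6.22, 6.40 and 6.43 on day 3, and 6.20, 6.25 and 6.05 on day 7. Its day 1 and day 3 arrays were above day 0, but the changes of 0.28 ± 0.09 (SE), 0.29 and 0.10 missed the threshold (limma adjusted p 0.127, 0.0655 and 0.385). Npat, the activator of histone gene transcription at the start of S phase, went the other way. It read 7.92, 7.71 and 8.01 on day 0, 7.01, 7.53 and 7.64 on day 1, 7.11, 7.20 and 7.42 on day 3, and 6.83, 6.86 and 7.29 on day 7. All treated arrays lay below day 0, with changes of -0.49 ± 0.18 (SE; limma adjusted p 0.211), -0.64 (0.0537) and -0.89 (0.0105). Sympk, a scaffold of the cleavage complex, was the other gene that fell on day 7 (-0.34).

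Histone chaperones, which escort new histones to DNA, had medians of 0.09, -0.03 and -0.16 over 20 tested genes. On day 1, 0 rose and 0 fell in limma at an adjusted p under 0.05, against 1.99% and 1.63% of all genes. At an unadjusted p under 0.05 the numbers were 7 and 2, which cannot be set against these shares at the adjusted threshold. Day 3 had 2 that rose and 1 that fell, against 4.61% and 7.14% of all genes, and day 7 had 1 and 5, against 12.1% and 13.2%. Hjurp, the chaperone of the centromeric histone, rose on days 3 and 7 (0.56 and 0.64), and Mms22l, which acts at replication forks, on day 3 (0.82). Rbbp7, a histone-binding subunit of several complexes, fell on both days (-1.01 and -1.65), and Anp32e (-0.66), Nap1l1 (-0.63), Cabin1 (-0.53) and Rbbp4 (-0.43) fell on day 7.

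The replacement variants and other histone genes outside the clusters had calls in both directions. Of 7 tested, 2 rose on day 1, against 1.99% of all genes. On day 3, 1 rose and 1 fell, against 4.61% and 7.14%. On day 7, 1 rose and 1 fell, near the 12.1% and 13.2% of all genes. The medians were 0.25, 0.26 and 0.11. H2ax, the variant phosphorylated at DNA breaks, whose mRNA can also end in the stem-loop, rose on day 1 (0.81, limma adjusted p 0.0227), and H2aj rose on all 3 days (0.38, 0.29 and 0.28). H2az2 fell on days 3 and 7 (-0.88 and -1.01). H2az1, its close relative, read 7.67, 8.00 and 7.89 on day 0, 8.14, 8.38 and 8.05 on day 1, 8.00, 8.20 and 8.15 on day 3, and 7.65, 8.36 and 7.94 on day 7, and was called on no day. Its day 1 arrays were all above day 0, the lowest of day 3 rounded to the highest of day 0, and day 7 overlapped day 0.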

How the data were processed

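The log2 signals per transcript cluster were deposited by the authors, who used Affymetrix Expression Console, as the submitters' processing notes say. How signals were background-corrected and normalized is not stated. The labels name an older Affymetrix array, but the identifiers are transcript clusters of another design, and genes were named from the platform annotation. Values were used as deposited, with the cluster of highest mean for each gene. Genes with at least 3 of 12 arrays at the 40th percentile (5.25) or above were tested in limma 3.58.1 (R 4.3.3) on all 12 arrays, with Benjamini-Hochberg adjustment over 22066 genes and a call at an adjusted p under 0.05. The 3 arrays per group limit the precision. Each p-value sets a difference of group means against the spread between arrays within groups, estimated from all 12 arrays. The script was tested on simulated data. Deviations of same-numbered arrays correlated above 0.1 in all 3 pairs only between day 1 and day 7 (0.61, 0.36 and 0.66).

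The genes named are the called histone genes, the 5 with the smallest F test p, the largest change of each class, the testis and replacement histone genes, up to 4 called genes of each other list, and Slbp, Npat, Mki67, Pcna and H2az1. Members, lists and this rule were chosen with earlier results of these data known. Alternatives were quantile normalization, centring, no filter, a stricter filter, a variance trend, the replicate number as a block, a control-feature covariate, the 6 arrays compared, and leaving out each array. Fits on all clusters and on literal or bright members, and all settings for the shared clusters and the other lists, were chosen after seeing the data. Counts of calls under the alternatives are given without the share of all genes called under the same setting. Promoters are from RefSeq (GRCm38.p6).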

Additional observations from a re-analysis of the deposited data

How the results depend on the processing

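No histone gene called on days 1, 3 or 7, under the deposited scale or the other, changed sign after quantile normalization or centring. Of the 22 tested, uncalled genes changed sign in 1, 2 and 4 cases on days 1, 3 and 7 after quantile normalization and 1, 2 and 5 after centring, among them Hist1h4a on day 7 (0.09, then -0.19 and -0.18). On day 1 the 4 calls became 2 after quantile normalization, after centring, without a filter and with all transcript clusters, 2 among bright members (above the negative control median on at least 6 arrays; fewer genes tested), and 1 on the 6 arrays compared. On day 3 the 7 became 4 after quantile normalization, 3 after centring, 1 with the control-feature covariate and 11 on the 6 arrays. On day 7 the 6 became 2 after quantile normalization or centring (1 higher and 1 lower gene each), 1 on the 6 arrays and 0 with the covariate. With the stricter filter and among bright members the count was 2 because fewer histone genes were tested. Between day 7 and day 1 the 0 became 3 after quantile normalization, 2 after centring, and 1 with the stricter filter or a variance trend. The 7 of the F test became 3 with the covariate, with all clusters and among bright members. Leaving out 1 array at a time gave 0 to 7 calls on day 1, 1 to 9 on day 3, 1 to 8 on day 7, 0 to 1 for day 7 against day 1 and 1 to 7 in the F test.

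Over the 3 comparisons with day 0, S-phase genes had 28 calls, 16 after centring, 6 with the covariate and 7 to 47 with 1 array left out. Mitosis genes had 38, 11 with the covariate and 18 to 48 with 1 array left out. Genes of histone mRNA processing had 5, 3 after quantile normalization, after centring, without a filter and with all clusters, 0 with the covariate and 2 to 8 with 1 array left out. Chaperones had 9, 5 with the covariate and 4 to 13 with 1 array left out; replacement variants had 6, 3 with a variance trend, 1 with the covariate, 2 on the 6 arrays and 1 to 6 with 1 array left out. The shared clusters had 3, 6 and 11 calls on days 1, 3 and 7. On day 1 this became 1 after quantile normalization, centring or without a filter, on day 3 it became 0 with the covariate, and on day 7 it became 7, 5 and 1 after quantile normalization, centring and with the covariate. Leaving out 1 array gave 0 to 7, 1 to 12 and 3 to 13. The share of all genes called under each of these settings is not given here. A shift may therefore hold for genes at large, and the cause of these shifts was not tested.

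With the replicate number as a block, 5, 8 and 5 histone genes were called on days 1, 3 and 7 and 8 in the F test, and 2, 9 and 13 shared clusters. It brought Hist1h2ah on day 3 (limma adjusted p 0.0461), Hist2h2bb on day 1 (0.0405) and Hist1h2af on days 1 and 3 (0.0241 and 0.028) past the threshold, and Hist1h2ba on days 1 and 7 (0.0642 and 0.0548) and Hist1h1a on day 3 (0.062) short of it. Same-numbered arrays share only a number in the labels, and against day 0 their deviations did not all correlate above 0.1 (18 pairs in all, -0.51 to 0.66, 7 over 0.1). For day 7 against day 1 the block called 0 histone genes. The share of all genes called with the block is not given here. Signals under the negative controls limit all dim members.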
